A study of Homo sapiens with 6 samples.

Results

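Kinesins are the motor proteins that walk along or dismantle microtubules, and 45 of the 17646 genes listed for each library belong to this family. They were taken as every gene symbol made of KIF and a number, together with KIFC1, KIFC2, KIFC3, the light chain genes KLC1, KLC2 and KLC4, and KIFAP3. By their known roles they were divided into 12 mitotic kinesins, 21 transport kinesins (17 motors and 4 non-motor subunits) and 12 kinesins of other or mixed role. The cells were MDA-MB-231, an established human line of triple negative breast cancer, harvested 48 h after transfection with an siRNA against the ubiquitin protease USP32 (siUSP32) or with a control siRNA (siControl), with 3 libraries in each group. All libraries came from this single line, and the knockdown was transient. Whether the 3 libraries of each group are separate cultures is not stated, and the spread that p-values rest on may thus be technical.

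A kinesin motor domain turns ATP hydrolysis into steps along a microtubule, and the rest of the protein decides what it carries. Mitotic kinesins build the spindle, move and align chromosomes, and drive cytokinesis. They are made mostly as cells approach division, so their transcripts are common markers of proliferation. Transport kinesins carry organelles, vesicles and RNA, mainly towards the cell periphery. Kinesin-1 is an assembly of KIF5 heavy chains with light chains that bind cargo, and the heterotrimeric form of kinesin-2 joins KIF3A with KIF3B or KIF3C and the adaptor KIFAP3.

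The promoters of the mitotic kinesins set them apart from the transport kinesins. Late cell cycle genes often carry a CHR element (cell cycle genes homology region), which binds the DREAM and MuvB complexes, with CCAAT boxes a short way upstream. In RefSeq promoters (GRCh38.p14, 250 bases before to 50 after the start), which were found for 35 of the 45 members, the CHR letters TTTGAA or TTCGAA were searched on both strands. They were present in 10 of 12 mitotic kinesins, 1 of 14 transport kinesins and 2 of 9 others, against 19.5% of all 27305 genes with a promoter. Within the window from -60 to 40 they were present in 10 of 12 mitotic and 0 of 14 transport kinesins, against 6.5% of all genes. A CHR together with the letters CCAAT on either strand was present in 9 of 12 mitotic and 1 of 14 transport kinesins, against 7.85% of all genes. The motifs were chosen after the expression values were known.

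The following stretches, from position -100 to 40 of RefSeq starts, show mitotic kinesins whose transcripts fell, rose or did not pass the test, so that the elements can be compared across them. Each is given on the gene's own strand, with CHR and CCAAT letters (or their reverse complements TTCAAA and ATTGG) in capitals. No CHR match overlapped a CCAAT match.
KIF11 (fell; chr10:92593030-92593169, plus strand): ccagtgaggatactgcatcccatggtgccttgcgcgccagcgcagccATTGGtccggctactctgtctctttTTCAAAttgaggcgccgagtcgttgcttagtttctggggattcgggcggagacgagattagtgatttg
KIF14 (fell; chr1:200620712-200620851, minus strand): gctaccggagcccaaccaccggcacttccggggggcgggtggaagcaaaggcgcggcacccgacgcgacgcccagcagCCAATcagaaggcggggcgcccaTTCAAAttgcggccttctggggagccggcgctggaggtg
KIF18B (fell; chr17:44947734-44947873, minus strand): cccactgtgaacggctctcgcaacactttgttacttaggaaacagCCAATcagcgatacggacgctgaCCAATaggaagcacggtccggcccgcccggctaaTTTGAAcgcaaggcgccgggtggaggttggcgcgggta
KIF18A (rose; chr11:28108117-28108256, minus strand): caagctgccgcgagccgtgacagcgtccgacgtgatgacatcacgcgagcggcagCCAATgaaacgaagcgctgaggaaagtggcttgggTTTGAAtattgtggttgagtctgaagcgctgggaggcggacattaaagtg
KIF22 (rose; chr16:29790651-29790790, plus strand): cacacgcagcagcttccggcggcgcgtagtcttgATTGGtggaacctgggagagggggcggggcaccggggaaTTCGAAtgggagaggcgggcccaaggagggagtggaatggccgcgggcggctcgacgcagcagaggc
KIF4A (did not pass; chrX:70290004-70290143, plus strand): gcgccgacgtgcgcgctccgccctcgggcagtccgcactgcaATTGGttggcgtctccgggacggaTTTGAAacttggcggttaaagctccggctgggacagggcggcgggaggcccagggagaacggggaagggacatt
KIFC1 (did not pass; chr6:33391723-33391862, plus strand): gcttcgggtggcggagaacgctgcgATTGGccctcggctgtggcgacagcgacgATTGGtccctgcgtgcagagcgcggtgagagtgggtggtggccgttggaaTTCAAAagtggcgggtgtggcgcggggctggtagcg
KIF2C (rose; chr1:44739737-44739876, plus strand): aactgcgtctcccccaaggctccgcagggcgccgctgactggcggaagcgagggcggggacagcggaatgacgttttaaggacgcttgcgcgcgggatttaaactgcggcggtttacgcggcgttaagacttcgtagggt
The CHR began at -28 in KIF11, at -34 in KIF4A and at -27 in KIF22, and just after the start in KIF14, KIF18B and KIFC1, at 2, 3 and 5. A CCAAT box began at -53 in KIF11, -58 in KIF4A, -66 in KIF22 and -45 in KIF18A. These positions depend on the start used. From a further RefSeq start of KIF22, not shown, the CHR began at -244 and no CCAAT box was found. A CHR and a CCAAT box were thus present in genes whose transcripts fell (KIF11, KIF14, KIF18B) and in genes whose transcripts rose (KIF18A, KIF22), at differing positions. KIF20A, which fell, and KIF2C, which rose, had no CHR in the spellings TTTGAA or TTCGAA, and KIF2C had no CCAAT box either. Both hold the letters TTTAAA, which were searched apart from the CHR counts above. TTTAAA was present in 4 of 12 mitotic kinesins, 1 of 14 transport kinesins and 0 of 9 others, against 14.5% of all genes. A match describes these letters only.

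The FPKM of all listed genes summed to between 855573 and 948641 in siUSP32 libraries and between 686376 and 694831 in siControl libraries. Their median was lower in siUSP32 libraries (3.75 FPKM on average) than in siControl libraries (5.17 FPKM). The sum and the median thus differed in opposite directions, so a single factor of scale does not describe the difference between the groups. USP32 was at 2.0, 1.88 and 2.01 FPKM in siUSP32 libraries, against 7.5, 7.48 and 8.32 FPKM in siControl libraries (log2 difference -1.56 ± 0.07 SE, limma adjusted p = 8.57e-08; exact permutation p = 0.1, the smallest that 3 against 3 allows). Of genes that bear on the labelled cell type, the mesenchymal marker VIM was at 1628 to 1715 FPKM in siUSP32 and 1077 to 1098 FPKM in siControl libraries. CD44 and EGFR, also looked for as high in this line, were lower in siUSP32 libraries. CD44 was at 130.77 to 138.41 FPKM in siUSP32 and 422.88 to 426.32 FPKM in siControl libraries. EGFR was at 6.31 to 7.92 and 36.95 to 38.92 FPKM in siUSP32 and siControl libraries. The oestrogen receptor gene ESR1 was at 0.63 FPKM or less and CDH1 (E-cadherin) at 0.50 FPKM or less in every library. ERBB2, the HER2 receptor gene, was at 3.54 to 3.64 FPKM in siUSP32 and 11.72 to 12.2 FPKM in siControl libraries, and the epithelial marker EPCAM at 3.89 to 4.85 and 9.61 to 12.09 FPKM in siUSP32 and siControl libraries, so both were present. PGR was not analysed here. Among siUSP32 libraries, library 2 had the highest FPKM sum (948641) and the lowest median (3.59 FPKM). It thus differed from the other siUSP32 libraries in the same direction as siUSP32 from siControl libraries, and the reason was not tested. Read depth is unknown, and its effect on the precision of low values was not tested.

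The test was limma on log2(FPKM + 1), with an adjusted p under 0.05 as the call, over 12003 genes that averaged 1 FPKM or more. Of the 45 kinesins 35 were among them. Of these 35, 10 were higher in siUSP32 libraries, 20 were lower and 5 did not pass. Over all tested genes 74.6% passed, 33.3% higher and 41.3% lower, so a call as such does not set kinesins apart. The groups did not overlap, with siUSP32 higher, for 10 of the 35 (34.6% of all tested genes), and with siUSP32 lower for 21 (43.2%). The median log2 difference was -0.31 over the 35 kinesins and -0.06 over all tested genes. With each library rescaled to the same sum (TPM), the median of all tested genes moved to -0.39. It was 0.10 after quantile normalization and 0.01 after a correction for transcript length, and the signs of small differences below depend on that choice. The calls of 10 kinesins kept their direction and passed in all 14 alternatives: KIF5B, KIF3B, KIF3A, KIF2A, KIFC2, KIF11, KIF18B and KIF20A, which fell, and KIF9 and KIFC3, which rose.

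Of the 12 mitotic kinesins, all tested, 3 rose, 4 fell and 5 did not pass, with a median log2 difference of 0.02. These are 25.0% higher and 33.3% lower, against 33.3% and 41.3% of all tested genes, so the split is near that of all genes. Their summed level was 359.8, 347.0 and 375.6 FPKM in siUSP32 libraries, against 343.8, 342.2 and 342.9 FPKM in siControl libraries. As shares of all listed FPKM these averaged 0.0406% in siUSP32 and 0.0498% in siControl libraries, so the sum was slightly higher on the deposited scale and lower as a share. In bulk RNA, fewer dividing cells and less RNA per cell cannot be told apart. Without siUSP32 library 2 the number that rose was 5, with KIF15 (log2 difference 0.23, limma adjusted p = 0.00343) and KIF23 (0.14, limma adjusted p = 0.0199) added.

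**Figure D1:**
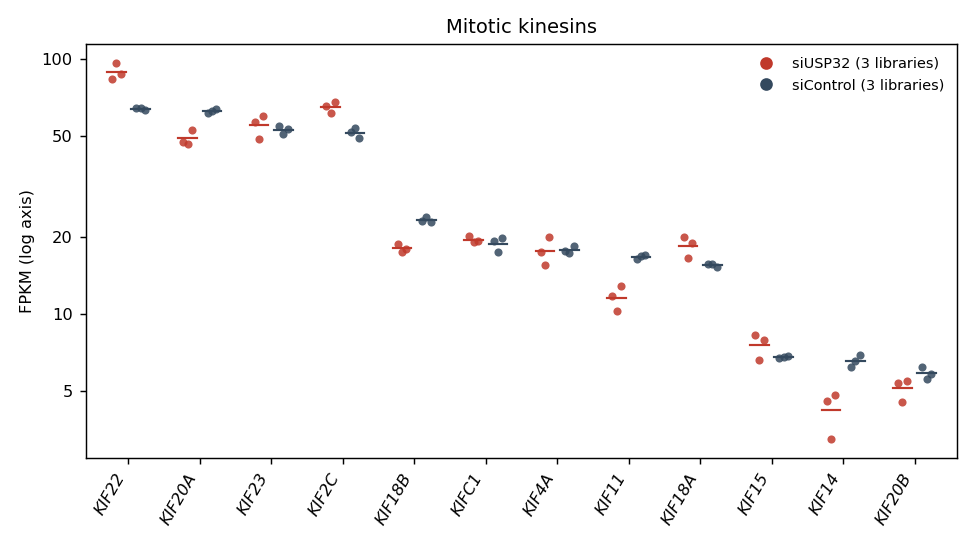
FPKM (log axis) of the 12 mitotic kinesins in each library, in order of the siControl mean; red points are the 3 siUSP32 libraries, dark points the 3 siControl libraries, and lines their means. KIF22, KIF2C and KIF18A were higher and KIF20A, KIF18B, KIF11, KIF14 and KIF20B lower in every siUSP32 library than in any siControl library.

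The kinesins that set up a bipolar spindle did not move together. KIF11, the kinesin-5 that slides antiparallel microtubules apart (also called Eg5; plus strand, GRCh38 chr10:92593286-92655395), was at 11.8, 10.2 and 12.8 FPKM in siUSP32 libraries, against 16.52, 16.91 and 17.03 FPKM in siControl libraries. The groups did not overlap, and KIF11 fell 1.45-fold (log2 difference -0.50 ± 0.08, limma adjusted p = 3.31e-04), with -0.20 after the length correction. KIF15, a kinesin-12 that can take over when KIF11 is inhibited, was at 8.28, 6.58 and 7.93 FPKM in siUSP32 libraries, against 6.74, 6.76 and 6.84 FPKM in siControl libraries. Its siUSP32 values lay on both sides of the controls and it did not pass (0.14, limma adjusted p = 0.159), though it was higher after the length correction (0.44) and quantile normalization (0.44). The ratio of KIF11 to KIF15 FPKM within a library was 1.42, 1.56 and 1.62 in siUSP32 and 2.45, 2.50 and 2.49 in siControl libraries. KIFC1, the minus-end-directed kinesin-14 that gathers extra centrosomes at the poles, was at 20.2, 19.2 and 19.3 FPKM in siUSP32 libraries, against 19.3, 17.5 and 19.8 FPKM in siControl libraries. These overlapped (log2 difference 0.05, limma adjusted p = 0.492), and the value was -0.31 with TPM.

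Among the kinesins that act on chromosomes and on microtubule ends, KIF22, KIF2C and KIF18A rose on the deposited scale. KIF22, the chromokinesin Kid that pushes chromosome arms outwards, was at 83.4, 96.9 and 87.5 FPKM in siUSP32 libraries, against 64.5, 64.2 and 63.2 FPKM in siControl libraries (log2 difference 0.47 ± 0.06, limma adjusted p = 9.07e-05). With TPM its difference was 0.11 and did not pass (limma adjusted p = 0.0968). KIF2C, the microtubule depolymerase MCAK that corrects faulty kinetochore attachments, was at 65.7, 61.7 and 67.9 FPKM in siUSP32 libraries, against 51.9, 53.9 and 49.0 FPKM in siControl libraries (0.33, limma adjusted p = 6.56e-04; -0.04 with TPM). KIF18A, a kinesin-8 that damps chromosome movements at metaphase, was at 20.2, 16.6 and 19.0 FPKM in siUSP32 libraries, against 15.8, 15.7 and 15.4 FPKM in siControl libraries. The groups did not overlap, with siUSP32 library 2 nearest to the controls. Its difference of 0.23 (limma adjusted p = 0.0179) was -0.12 with TPM and did not pass without siUSP32 library 1 (0.0764) or siControl library 3 (0.0601).

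KIF18B, the other kinesin-8, which limits astral microtubules, fell. It was at 18.9, 17.5 and 18.0 FPKM in siUSP32 libraries, against 23.1, 24.1 and 23.1 FPKM in siControl libraries, without overlap (log2 difference -0.36 ± 0.05, limma adjusted p = 2.83e-04; also -0.36 after the length correction). KIF4A, a chromokinesin that also shortens the central spindle, was at 17.6, 15.6 and 20.1 FPKM in siUSP32 libraries, against 17.7, 17.3 and 18.5 FPKM in siControl libraries. It did not pass (-0.01, limma adjusted p = 0.884), with -0.37 by TPM and 0.24 after the length correction, both past the threshold. Its near-identical retrocopy KIF4B was listed at 0.07 FPKM or less in every library, and how reads that match both were counted is not known.

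The cytokinesis kinesins were KIF20A, KIF23, KIF14 and KIF20B. KIF20A, also called MKLP2, which brings the Aurora B complex to the central spindle, was at 47.3, 46.5 and 52.9 FPKM in siUSP32 libraries, against 61.3, 62.8 and 64.0 FPKM in siControl libraries. It fell 1.28-fold without overlap (log2 difference -0.35 ± 0.06, limma adjusted p = 4.93e-04). KIF23, also called MKLP1, the motor of the centralspindlin complex, was at 56.6, 48.6 and 59.8 FPKM in siUSP32 libraries, against 54.5, 50.8 and 53.5 FPKM in siControl libraries, and did not pass (0.05, limma adjusted p = 0.57; -0.32 with TPM). The ratio of KIF20A to KIF23 within a library averaged 0.892 ± 0.061 in siUSP32 and 1.19 ± 0.0565 in siControl libraries (SD, n = 3 each).

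KIF14, which works with citron kinase at the midbody, was at 4.56, 3.23 and 4.80 FPKM in siUSP32 libraries, against 6.18, 6.55 and 6.91 FPKM in siControl libraries. It was lowest in siUSP32 library 2 and fell 1.56-fold (log2 difference -0.55 ± 0.12, limma adjusted p = 0.00208). KIF14 has the longest transcript of the 12, 7274 bases, and its difference did not pass after the length correction (-0.09, limma adjusted p = 0.361). KIF20B, a kinesin-6 of late cytokinesis, was at 5.36, 4.53 and 5.46 FPKM in siUSP32 libraries, against 6.21, 5.55 and 5.84 FPKM in siControl libraries. It did not pass on the deposited scale (-0.17, limma adjusted p = 0.0856). With TPM it was lower in siUSP32 libraries (-0.50, limma adjusted p = 0.00218), while it was higher after the length correction (0.25, limma adjusted p = 0.00544) and quantile normalization (0.17, limma adjusted p = 0.0455).

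Transport motors mostly fell on the deposited scale. Of 17 listed, 13 were tested, and 10 of these fell and 3 rose (76.9% and 23.1%, against 41.3% and 33.3% of all tested genes). Their median log2 difference was -0.47, against -0.06 over all tested genes. By TPM the median of the motors was -0.81, and 10 fell and 1 rose, where 62.1% of all tested genes fell and 14.3% rose. Quantile normalization gave -0.14, with 5 lower and 3 higher, against 30% lower and 43.8% higher over all tested genes. The length correction gave -0.02, with 4 lower and 3 higher, against 35.1% in each direction over all genes with a length. The summed level of the 17 motors was 118.3, 113.9 and 124.3 FPKM in siUSP32 libraries, against 151.9, 150.9 and 156.2 FPKM in siControl libraries, without overlap. The 4 subunits went their own way, with the 3 light chains higher and KIFAP3 lower.

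**Figure D2:**
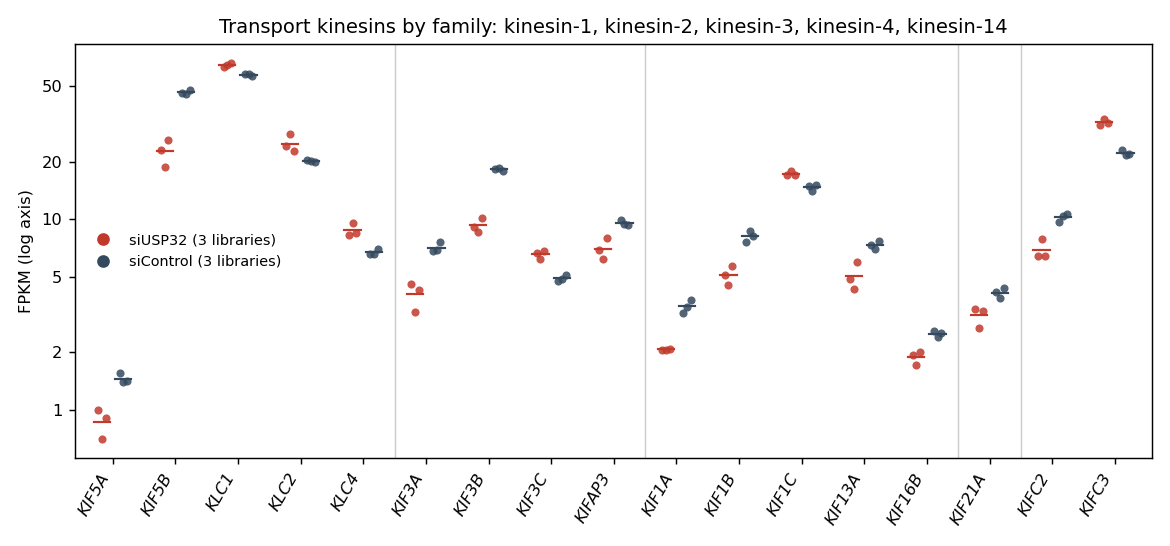
FPKM (log axis) of the 17 tested transport kinesins in each library, ordered by family; red points are the 3 siUSP32 libraries, dark points the 3 siControl libraries, and lines their means. KIF5A, KIF5B, KIF3A, KIF3B, KIFAP3, KIF1A, KIF1B, KIF13A, KIF16B, KIF21A and KIFC2 were lower in every siUSP32 library than in any siControl library. KLC1, KLC2, KLC4, KIF3C, KIF1C and KIFC3 were higher in every siUSP32 library than in any siControl library.

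Kinesin-1 changed in its heavy chain above all. KIF5B, the ubiquitous heavy chain that carries mitochondria and lysosomes (minus strand, GRCh38 chr10:32009010-32056431), was at 23.1, 18.8 and 26.2 FPKM in siUSP32 libraries, against 46.2, 45.7 and 47.8 FPKM in siControl libraries. Every siUSP32 value lay well under the controls, and KIF5B fell 2.05-fold (log2 difference -1.02 ± 0.10, limma adjusted p = 1.76e-05), the largest difference among tested kinesins on the deposited scale. It was -1.38 with TPM, -1.04 after quantile normalization and -0.63 after the length correction. KIF5A, a mainly neuronal heavy chain, was at 0.99, 0.70 and 0.90 FPKM in siUSP32 libraries, against 1.56, 1.40 and 1.41 FPKM in siControl libraries (-0.40, limma adjusted p = 0.00165; -0.02 after the length correction). KIF5C, the third heavy chain, was at 0.02 FPKM or less in every library.

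The light chains, which link KIF5 dimers to cargo and hold the motor inactive without it, were higher in siUSP32 libraries on the deposited scale but not with TPM. KLC1 was at 62.7, 64.5 and 66.3 FPKM in siUSP32 libraries, against 57.9, 57.6 and 56.8 FPKM in siControl libraries (log2 difference 0.17, limma adjusted p = 0.00957). With TPM it was lower in siUSP32 libraries (-0.20, limma adjusted p = 0.0147). Taken over all its annotated transcripts, its exons overlap those of XRCC3 on the opposite strand over 5756 bases. XRCC3 was at 15.7 and 13.2 FPKM on average in siUSP32 and siControl libraries. Without a stated use of strand, reads of the overlap cannot be told apart. KLC1 also shares 1989 exon bases with the protein-coding gene AL139300.1 on the same strand, where the strand of a read would not tell them apart. KLC2 was at 24.2, 28.0 and 22.8 FPKM in siUSP32 libraries, against 20.4, 20.2 and 20.1 FPKM in siControl libraries (0.29, limma adjusted p = 0.00693; -0.07 with TPM). KLC4 was at 8.23, 9.55 and 8.46 FPKM in siUSP32 libraries, against 6.55, 6.60 and 6.96 FPKM in siControl libraries (0.34, limma adjusted p = 0.00209; 0.01 with TPM). KLC4 shares 373 exon bases with MRPL2 on the opposite strand, which averaged 61.4 FPKM in siUSP32 and 34.8 FPKM in siControl libraries, and the part of such reads in the KLC4 value was not tested.

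A ratio within a library does not depend on its scale. The summed FPKM of KIF5A, KIF5B and KIF5C over that of KLC1, KLC2 and KLC4 was 0.254, 0.191 and 0.278 in siUSP32 libraries, against 0.564, 0.557 and 0.587 in siControl libraries, a 2.36-fold lower mean. This ratio, like the others given for pairs of genes, was chosen after the values were seen and is a description of unequal change. KIF5B accounts for most of the numerator and its transcript is longer than those of the light chains (5877 bases, against 2770 to 3250).

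**Figure D3:**
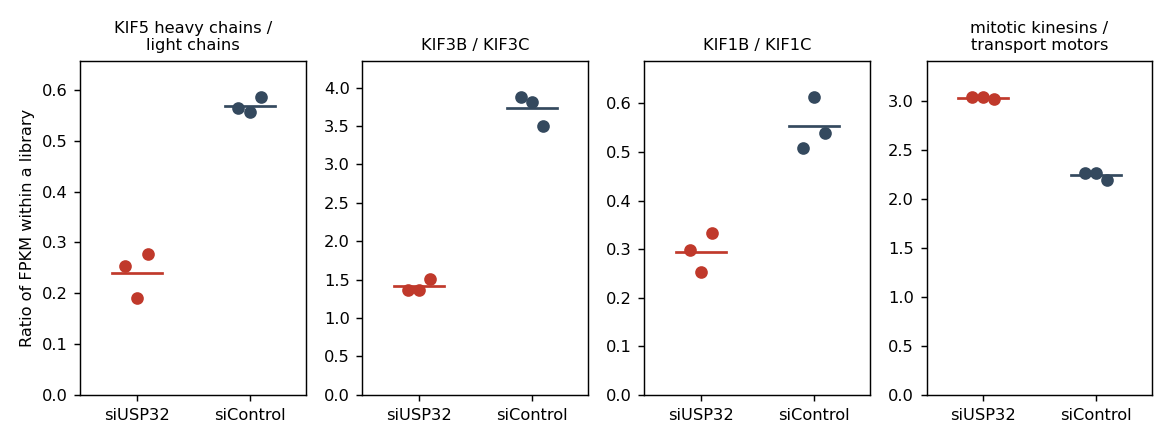
Ratios of FPKM within each library for kinesin-1 heavy over light chains, KIF3B over KIF3C, KIF1B over KIF1C, and all mitotic kinesins over all transport motors; red points are the 3 siUSP32 libraries, dark points the 3 siControl libraries, and lines their means. The first 3 ratios were lower and the last was higher in every siUSP32 library than in any siControl library.

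Heterotrimeric kinesin-2, which drives transport along the cilium and of vesicles, changed in both directions on the deposited scale. KIF3B (plus strand, GRCh38 chr20:32277664-32335011) was at 9.15, 8.52 and 10.2 FPKM in siUSP32 libraries, against 18.4, 18.5 and 17.9 FPKM in siControl libraries. It fell 1.96-fold (log2 difference -0.91 ± 0.07, limma adjusted p = 3.41e-06), with -0.50 after the length correction. Its partner KIF3A was at 4.57, 3.26 and 4.27 FPKM in siUSP32 libraries, against 6.82, 6.87 and 7.58 FPKM in siControl libraries, a 1.76-fold fall (-0.69, limma adjusted p = 2.44e-04; -0.28 after the length correction). KIFAP3, the adaptor that joins the motor pair to cargo, was at 6.87, 6.16 and 7.95 FPKM in siUSP32 libraries, against 9.92, 9.49 and 9.34 FPKM in siControl libraries (-0.41, limma adjusted p = 0.00197), and did not pass after quantile normalization (-0.12, 0.152).

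KIF3C, which can replace KIF3B as the partner of KIF3A, was at 6.67, 6.21 and 6.77 FPKM in siUSP32 libraries, against 4.73, 4.84 and 5.11 FPKM in siControl libraries. It rose 1.34-fold (log2 difference 0.36 ± 0.07, limma adjusted p = 9.21e-04), with 0.71 after the length correction and 0.04 with TPM, where it did not pass. The ratio of KIF3B to KIF3C was 1.37, 1.37 and 1.51 in siUSP32 libraries, against 3.88, 3.82 and 3.50 in siControl libraries. Their principal transcripts have 6103 and 5344 bases, and the part of length in this ratio was not tested. KIF17, the homodimeric kinesin-2, was at 0.26 FPKM or less in every library.

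Kinesin-3 motors, which carry vesicles over long distances, fell on the deposited scale where tested, with the exception of KIF1C. KIF1B, a carrier of mitochondria and synaptic vesicle precursors, was at 5.12, 4.53 and 5.69 FPKM in siUSP32 libraries, against 7.56, 8.67 and 8.15 FPKM in siControl libraries (log2 difference -0.58, limma adjusted p = 2.34e-04). KIF1A, its mainly neuronal relative, was at 2.06, 2.06 and 2.09 FPKM in siUSP32 libraries, against 3.23, 3.46 and 3.78 FPKM in siControl libraries (-0.55, limma adjusted p = 1.04e-04). Their transcripts are 10669 and 8987 bases long, and both differences were -0.02 after the length correction. KIF1C, which moves dense-core vesicles and integrin cargo, was at 17.1, 17.9 and 17.1 FPKM in siUSP32 libraries, against 14.9, 14.1 and 15.1 FPKM in siControl libraries. It rose 1.18-fold (0.22 ± 0.06, limma adjusted p = 0.00519). The transcript of KIF1C has 7919 bases, and its difference was 0.71 after the length correction but -0.13 with TPM.

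The ratio of KIF1B to KIF1C was 0.299, 0.253 and 0.334 in siUSP32 libraries, against 0.508, 0.614 and 0.538 in siControl libraries. KIF13A, which carries recycling endosomes, was at 4.85, 4.30 and 5.96 FPKM in siUSP32 libraries, against 7.35, 6.99 and 7.64 FPKM in siControl libraries (log2 difference -0.47, limma adjusted p = 0.00205; -0.08 after the length correction). KIF16B, an early endosome motor, was at 1.93, 1.72 and 2.02 FPKM in siUSP32 libraries, against 2.58, 2.41 and 2.54 FPKM in siControl libraries (-0.28, limma adjusted p = 0.00586; 0.06 after the length correction and 0.10 after quantile normalization). KIF13B, with a mean under the minimum, ranged over 0.55 to 0.75 FPKM in siUSP32 and 0.97 to 1.08 FPKM in siControl libraries.

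KIF21A, a kinesin-4 that restrains microtubule growth at the cell cortex, was at 3.38, 2.69 and 3.30 FPKM in siUSP32 libraries, against 4.13, 3.85 and 4.35 FPKM in siControl libraries (log2 difference -0.31, limma adjusted p = 0.00866; 0.12 after the length correction and 0.08 after quantile normalization). KIF21B was at 0.76 to 0.78 FPKM in siUSP32 and 0.59 to 0.83 FPKM in siControl libraries. The kinesin-14 transport motors went opposite ways. KIFC2 was at 6.44, 7.83 and 6.43 FPKM in siUSP32 libraries, against 9.63, 10.4 and 10.7 FPKM in siControl libraries (-0.51, limma adjusted p = 4.31e-04; -0.42 after the length correction). KIFC3, which acts at epithelial junctions and the Golgi, was at 31.4, 33.6 and 31.9 FPKM in siUSP32 libraries, against 23.2, 21.7 and 22.1 FPKM in siControl libraries. It rose 1.45-fold (0.51 ± 0.05, limma adjusted p = 2.60e-05), with 0.16 by TPM and 0.63 after the length correction.

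Of the 12 kinesins outside these classes 6 were tested, and 1 rose and 5 fell on the deposited scale, where 33.3% of all tested genes rose and 41.3% fell. After quantile normalization 2 were higher and 1 lower, and after the length correction 1 was higher and 1 lower. KIF9, a kinesin known from motile cilia and flagella (minus strand, GRCh38 chr3:47228026-47283451), had the largest rise of any tested kinesin. It was at 26.9, 27.6 and 26.6 FPKM in siUSP32 libraries, against 15.45, 13.47 and 14.01 FPKM in siControl libraries, a 1.89-fold rise (log2 difference 0.87 ± 0.06, limma adjusted p = 1.92e-06). It was 0.53 with TPM, 0.99 after quantile normalization and 0.98 after the length correction. Its exons overlap those of the antisense gene KIF9-AS1 over 870 bases and of KLHL18 over 178 bases, and KLHL18 was at 7.33 and 7.38 FPKM on average in siUSP32 and siControl libraries. Reads of the overlaps cannot be assigned without a stated use of strand.

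KIF2A, a depolymerase related to KIF2C that acts at spindle poles and in interphase cells, was at 13.42, 11.5 and 14.04 FPKM in siUSP32 libraries, against 19.8, 20.2 and 20.8 FPKM in siControl libraries. It fell 1.56-fold (log2 difference -0.61 ± 0.08, limma adjusted p = 7.49e-05), and with a transcript of 2539 bases it had -0.65 after the length correction. It shares 428 exon bases with IPO11 on the same strand, which averaged 15.1 FPKM in siUSP32 and 15.9 FPKM in siControl libraries. KIF2A and KIF2C are paralogs of the kinesin-13 family, and the ratio of KIF2A to KIF2C was 0.204, 0.186 and 0.207 in siUSP32 libraries, against 0.381, 0.374 and 0.424 in siControl libraries. KIF26A, an atypical kinesin without motor activity, was at 4.86, 4.93 and 4.44 FPKM in siUSP32 libraries, against 6.86, 7.07 and 6.94 FPKM in siControl libraries (-0.47, limma adjusted p = 1.47e-04; -0.10 after the length correction).

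KIF24, a depolymerase of the centriole that restrains ciliation, was at 2.29, 2.02 and 2.22 FPKM in siUSP32 libraries, against 3.07, 2.84 and 3.30 FPKM in siControl libraries (log2 difference -0.36, limma adjusted p = 0.00197; 0.05 after both the length correction and quantile normalization). It shares 143 exon bases with UBAP1 on the opposite strand, which averaged 47.1 FPKM in siUSP32 and 42.6 FPKM in siControl libraries. The part of such reads in the KIF24 value was not tested. KIF7, a regulator of Hedgehog signalling at the tip of the cilium, was at 1.67, 1.70 and 1.78 FPKM in siUSP32 libraries, against 2.03, 2.15 and 2.11 FPKM in siControl libraries. Its difference of -0.19 (limma adjusted p = 0.0263) was 0.18 after quantile normalization, past the threshold in the other direction (0.0283), and it did not pass when any one of the siControl libraries or siUSP32 library 1 was left out (0.0512 to 0.0865). KIF7 shares 589 exon bases with TICRR on the opposite strand, which averaged 0.837 FPKM in siUSP32 and 1.62 FPKM in siControl libraries, and the part of such reads in the KIF7 value was not tested. KIFC2 likewise shares 791 exon bases with FOXH1, which averaged 0.1 FPKM in siUSP32 and 0.147 FPKM in siControl libraries. KIF27, a paralog of KIF7 known from motile cilia in mice, was at 0.84, 1.2 and 1.03 FPKM in siUSP32 libraries, against 2.17, 1.42 and 1.93 FPKM in siControl libraries (-0.48, limma adjusted p = 0.00365; -0.20 after the length correction).

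The remaining 6 had a mean under 1 FPKM and were not tested. KIF6 was at 0.64 to 0.69 FPKM in siUSP32 and 0.38 to 0.50 FPKM in siControl libraries. KIF12 was at 0.35 to 0.43 and 0.42 to 0.67 FPKM, and KIF25 at 0.25 to 0.39 and 0.15 to 0.26 FPKM, in siUSP32 and siControl libraries. KIF26B, KIF19 and KIF4B were at 0.15 FPKM or less in every library.

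Set side by side, the tested mitotic kinesins had a median log2 difference of 0.02 and the 17 tested transport kinesins, motors and subunits together, one of -0.40, a gap of 0.42. The gap narrowed to 0.32 with TPM, 0.24 after the length correction and 0.16 after quantile normalization, and the sign held in each. The ratio of summed FPKM, mitotic kinesins over transport motors, was 3.041, 3.047 and 3.022 in siUSP32 libraries, against 2.263, 2.268 and 2.196 in siControl libraries. Without KIF5B the ratio was 3.78, 3.65 and 3.83 in siUSP32 libraries, against 3.25, 3.25 and 3.16 in siControl libraries. No p is given for these list values, since the lists were chosen with results of these data known.

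**Figure D4:**
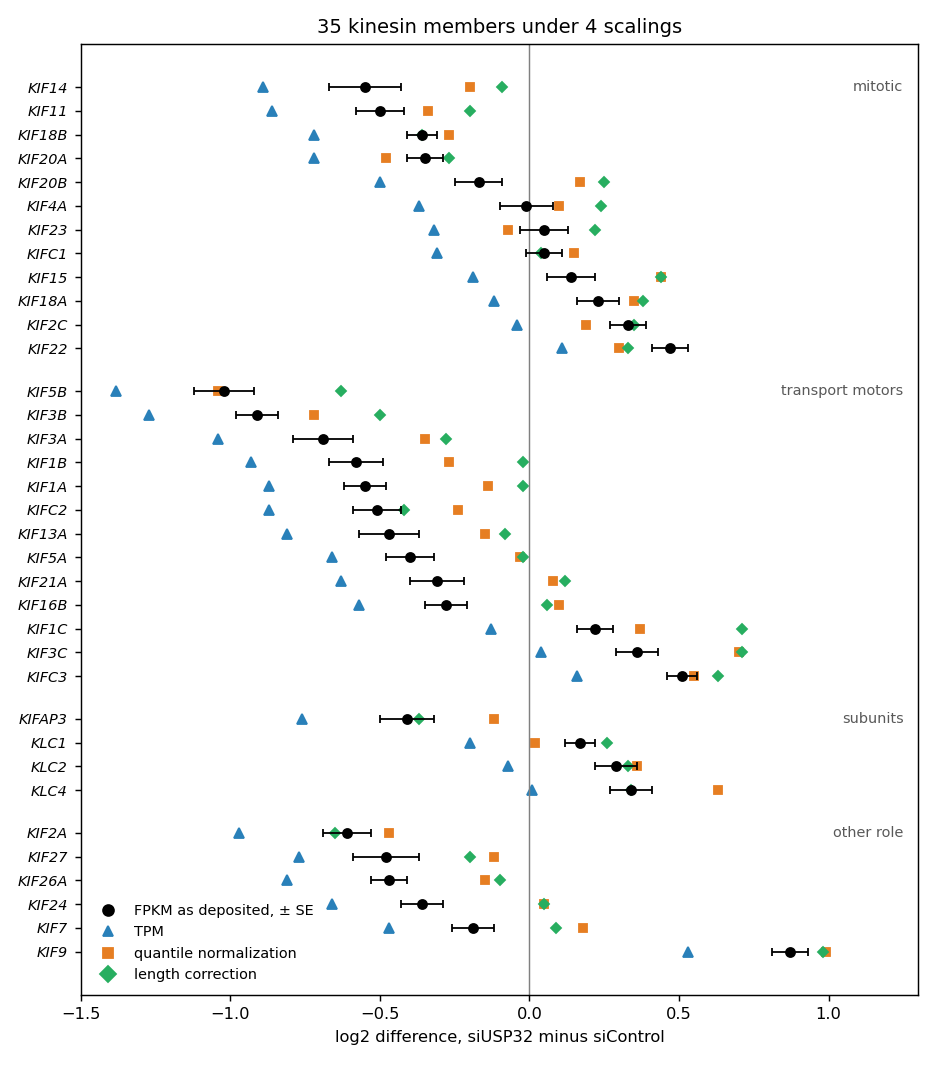
Log2 difference, siUSP32 minus siControl, of the 35 tested kinesins by class, on the deposited FPKM (black, with the SE from limma), with TPM (blue), after quantile normalization (orange) and after the length correction (green). KIF5B, KIF3B, KIF3A, KIF2A, KIFC2, KIF11, KIF18B, KIF20A, KIF14, KIF1A, KIF1B, KIF5A, KIF13A, KIFAP3, KIF26A and KIF27 lay below 0 under all 4. KIF9, KIFC3, KIF22, KIF3C and KLC4 lay above 0 under all 4. KLC1, KLC2, KIF1C, KIF2C, KIF18A, KIF15, KIF23 and KIFC1 lay above 0 on the deposited FPKM and below 0 with TPM.

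Transcript length moved with the division. Mitotic kinesins had a median length of 3645.5 bases, transport motors of 5941 and the subunits of 2986, against 3051 over all tested genes with a length. Across the 35 kinesins the log2 difference and length had a Spearman correlation of -0.45, against -0.52 across 11957 genes; these are correlations across genes of the same libraries, which are not independent replicates. Among the 8 mitotic kinesins with transcripts of at most 4653 bases, the median of the 35, 3 rose and 2 fell (median log2 difference 0.05), and of the 6 such transport kinesins 4 rose and 2 fell (0.23). Of the 4 longer mitotic kinesins 0 rose and 2 fell (-0.34), and of the 11 longer transport kinesins 2 rose and 9 fell (-0.47). Among shorter transcripts the transport kinesins were thus not the lower set. These 6 were, however, the 4 subunits and the motors KIFC2, which fell, and KIFC3, which rose. The 11 longer ones were all motors, so this split cannot tell length apart from the kind of gene. The part of length in the fall of the transport motors was not tested beyond the correction.

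**Figure D5:**
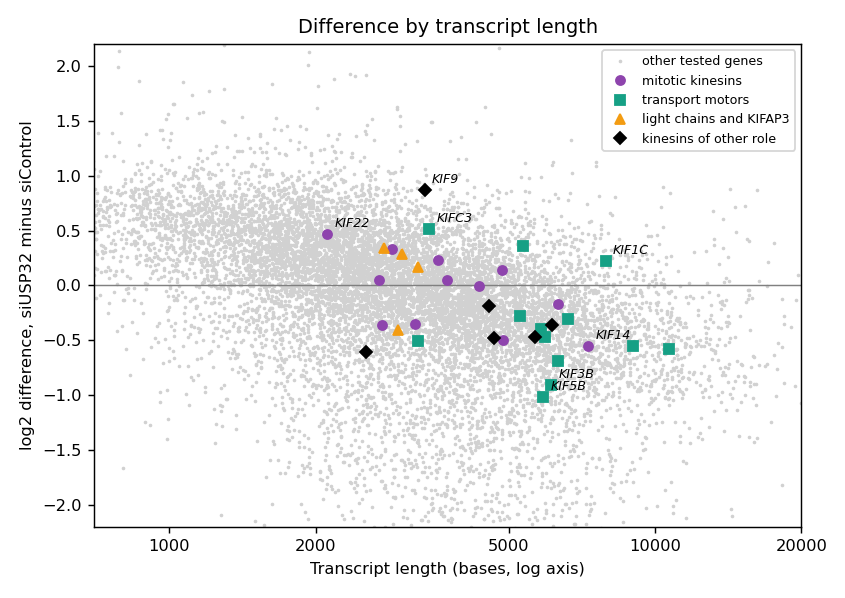
Log2 difference, siUSP32 minus siControl, against transcript length (log axis) for 35 kinesins by class and for other tested genes in grey, of which 431 lie outside the axes. KIF5B, KIF3B and most transport motors lie to the right and below 0, with KIF1C and KIF3C above 0 at such lengths.

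Genes that work with kinesins were counted in the same way. Of 34 spindle, checkpoint and proliferation genes, all tested, 10 rose, 13 fell and 11 did not pass (29.4% higher and 38.2% lower, near the 33.3% and 41.3% of all tested genes), with a median log2 difference of -0.09 that was -0.45 with TPM and -0.01 after the length correction. AURKB, the chromosomal passenger kinase that KIF20A carries to the midzone, was at 124.8, 143.1 and 121.7 FPKM in siUSP32 libraries, against 54.4, 53.7 and 58.3 FPKM in siControl libraries (1.21 ± 0.07, limma adjusted p = 4.36e-07; 0.85 with TPM). BIRC5, the survivin subunit of the same complex, rose 1.74-fold (0.79, limma adjusted p = 1.51e-06), and NUF2, a kinetochore gene, rose 1.38-fold (0.45; 0.09 with TPM, where it did not pass). MKI67, the Ki-67 proliferation marker, fell 2.03-fold (-0.94, limma adjusted p = 2.32e-06; -0.35 after the length correction). The spindle pole gene ASPM fell 1.8-fold (-0.75; -0.19 after the length correction) and HMMR, a spindle assembly factor, 1.5-fold (-0.56; -0.52 after the length correction).

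Of 19 tested genes for adaptors and partners of kinesin-1, 5 rose, 10 fell and 4 did not pass (26.3% higher and 52.6% lower, against 33.3% and 41.3% of all tested genes), with a median of -0.20 that was 0.11 after quantile normalization and 0.01 after the length correction. CLSTN1, the calsyntenin that binds light chains on vesicles, was at 8.69, 8.66 and 8.86 FPKM in siUSP32 libraries, against 57.1, 55.8 and 56.1 FPKM in siControl libraries, a 6.45-fold fall (-2.56 ± 0.05, limma adjusted p = 1.40e-09; -2.27 after the length correction). KTN1, the kinectin anchored in the endoplasmic reticulum, fell 4.43-fold (-2.05, limma adjusted p = 1.17e-08), and KIDINS220, a transmembrane cargo of kinesin-1, fell 6.76-fold (-2.04, limma adjusted p = 6.48e-08). All of these falls were larger than that of KIF5B. PLEKHM2, which couples kinesin-1 to lysosomes through light chains, was at 26.3, 27.4 and 26.3 FPKM in siUSP32 libraries, against 19.3, 16.9 and 18.4 FPKM in siControl libraries (0.53, limma adjusted p = 4.73e-05; 0.17 with TPM). FEZ1 rose 1.28-fold and RHOT2, the mitochondrial Miro GTPase gene, 1.3-fold, and with TPM their differences were -0.01 and 0.01.

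Of 26 tested genes of dynein, the motor that opposes most kinesins, and of its dynactin cofactor and adaptors, 11 were higher, 10 were lower and 5 did not pass (median -0.04, and -0.39 with TPM). These are 42.3% higher and 38.5% lower, near the 33.3% and 41.3% of all tested genes. The dynein heavy chain DYNC1H1 was at 5.81, 5.35 and 6.54 FPKM in siUSP32 libraries, against 13.03, 13.41 and 13.98 FPKM in siControl libraries (-1.07 ± 0.08, limma adjusted p = 1.90e-06; -0.46 after the length correction). The adaptors HOOK1 and HOOK3 fell 2.61-fold and 3.34-fold, while the light chain DYNLRB1 rose 1.81-fold (0.85, limma adjusted p = 1.93e-05; 0.30 after the length correction) and the dynactin genes ACTR1B and DCTN6 rose 1.74-fold and 1.34-fold. DCTN6 had a difference of -0.03 after the length correction.

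Tubulin genes, which encode the track, were mostly higher on the deposited scale, and with TPM 3 rose and 4 fell. Of 16, 10 rose, 1 fell and 5 did not pass on the deposited scale (62.5% higher and 6.25% lower, against 33.3% and 41.3% of all tested genes), with a median of 0.34. With TPM these were 18.8% higher and 25.0% lower, against 14.3% and 62.1% of all tested genes, with a median of -0.02 against -0.39. The median was 0.10 after quantile normalization, against 0.10 over all tested genes, and 0.08 after the length correction. TUBA1C rose 1.72-fold (0.78, limma adjusted p = 1.49e-06; 0.41 with TPM), TUBE1, the centriolar epsilon-tubulin, 2.22-fold (1.05, limma adjusted p = 9.84e-07; 0.72 with TPM) and TUBA1A 1.37-fold (0.45; 0.08 with TPM). TUBG2, a gamma-tubulin, was at 13.5, 13.7 and 12.8 FPKM in siUSP32 libraries, against 14.7, 14.9 and 14.8 FPKM in siControl libraries (-0.14, limma adjusted p = 0.0395; 0.02 after quantile normalization). Leaving out any library except siUSP32 library 2 ended that call (limma adjusted p = 0.0751 to 0.121). Alpha- and beta-tubulin genes are close copies that can share reads, so single values are uncertain.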

How the data were processed

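RNA extracted with Trizol was made into libraries by MGISEQ-2000RS protocols, per the labels' protocols. The values the authors deposited are FPKM, per the file headers, 1 table per library, and the submitters' processing notes name the genome build GRCh38.p13. For the aligner, counter, annotation and strand the entry is: not given in the sources used here. FPKM is not a count, so no count model was used, and read depth is unknown, so no counting interval is given.

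The 12003 genes with a mean of at least 1 FPKM were fitted as log2(FPKM + 1) with limma 3.58.1 in R 4.3.3 (mean-variance trend, 2-sided, Benjamini-Hochberg over all genes). The fit was tested on simulated data in which few genes changed and no shift by transcript length was set. That simulation does not cover a change as broad as the 74.6% of genes that passed here. Differences are siUSP32 minus siControl and understate changes of low genes; folds are ratios of mean FPKM. Gene locations and principal transcript lengths came from GENCODE 29 on GRCh38, and the length correction was a robust loess curve (span 0.5) per library. Members and lists were chosen with earlier results of these data known. Values in every library were given for tested members, and in each neighbouring list the genes named were the 3 called higher and the 3 called lower (or as many as there were) at the lowest adjusted p. Pairs of libraries within a group shared 0.45% to 0.783% of values, so no library was a copy.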

Additional observations from a re-analysis of the deposited data

How the results depend on the processing

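Of 273 values of tested kinesins under 8 alternatives (7 members are under the minimum of 5 FPKM), 228 kept direction and call. Pseudocount 0.1, no filter, a minimum of 5 FPKM and limma without the trend changed none. The counts below stand against the shares of all tested genes. With TPM 14.3% of these were higher and 62.1% lower (median -0.39). After quantile normalization 43.8% were higher and 30% lower (0.10), and after the length correction 35.1% in each direction (0.01). At a minimum of 5 FPKM 41.4% were higher and 35.5% lower (0.05), and without a filter 23.2% and 33.8% (-0.03). With TPM the counts were 2 kinesins higher in all, with 0 mitotic higher and 8 lower (median -0.34), 1 transport kinesin and 1 transport motor higher (medians -0.66 and -0.81), 0 subunits higher and 2 lower (-0.14), and medians of -0.63 over all kinesins and -0.71 over other roles. After quantile normalization they were 9 kinesins lower in all (0.02), 5 mitotic higher (0.13), 5 transport kinesins and 5 motors lower (-0.03 and -0.14), 0 subunits lower, and 2 others higher and 1 lower (-0.04). After the length correction they were 9 lower in all (0.05), 7 mitotic higher (0.23), 5 transport kinesins and 4 motors lower (-0.02 and -0.02), a median of 0.30 for subunits, and 1 other lower (-0.02). At a minimum of 5 FPKM fewer genes were tested, with 13 kinesins, 7 transport kinesins, 6 motors and 2 others lower, and medians of -0.09 over all and -0.47 over others. Without a filter 2 others were higher, and the medians were -0.13 (all), -0.29 (transport), -0.31 (motors) and -0.09 (others). With a pseudocount of 0.1 they were -0.37 (all), -0.57 (motors) and -0.51 (others). The mitotic minus transport gap was 0.47 with that pseudocount, 0.31 without a filter, 0.32 with TPM, 0.16 after quantile normalization and 0.24 after the length correction, and for motors alone 0.59, 0.33, 0.53 (minimum of 5 FPKM), 0.27 (quantile) and 0.25 (length).

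For the neighbouring lists, TPM gave 2 spindle genes higher and 24 lower (-0.45), 1 adaptor higher (-0.54), 3 dynein genes higher and 17 lower (-0.39) and 3 tubulins higher and 4 lower (-0.02). Lower were 70.6% of spindle, 68.4% of adaptor, 65.4% of dynein and 25.0% of tubulin genes, against 62.1% of all tested genes (median -0.39). Higher were 5.88%, 5.26%, 11.5% and 18.8% in the same order, against 14.3% of all tested genes. Quantile normalization gave 8 adaptors higher (0.11), 4 tubulins lower (0.10) and a dynein median of 0.05, and the length correction an adaptor median of 0.01 and 4 tubulins lower (0.08). Of all tested genes 43.8% were higher and 30% lower after quantile normalization, and 35.1% were lower after the length correction. At a minimum of 5 FPKM the adaptor and dynein medians were -0.10 and 0.03, and without a filter the dynein median was 0.00. The causes were not tested.

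Single genes changed sign with TPM (KIF23 -0.32, KIF2C -0.04, KIF15 -0.19, KIF18A -0.12, KIFC1 -0.31, KIF1C -0.13, KLC1 -0.20, KLC2 -0.07, FEZ1 -0.01), with quantile normalization (KIF20B 0.17, KIF23 -0.07, KIF4A 0.10, KIF16B 0.10, KIF21A 0.08, KIF7 0.18, KIF24 0.05, TUBG2 0.02) and with the length correction (KIF20B 0.25, KIF4A 0.24, KIF16B 0.06, KIF21A 0.12, KIF7 0.09, KIF24 0.05, DCTN6 -0.03).

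Leaving out 1 library at a time kept 198 of 210 member values. The median ran from -0.34 to -0.24 over all kinesins, from -0.06 to 0.07 over mitotic kinesins (2 to 5 higher) and from -0.50 to -0.38 over motors, the gap from 0.36 to 0.45 (0.41 to 0.49 for motors), and 0 to 2 tubulins were lower. KIF23 ran from -0.01 to 0.14, KIF4A from -0.10 to 0.07 and KIFC1 from -0.00 to 0.08. Replicate numbers did not pair the libraries (same-number correlations of deviations of -0.0766, 0.0706 and 0.119). With the replicate number as a block KIF7 (limma adjusted p = 0.0549) and TUBG2 (0.0762) did not pass, and 10 kinesins were higher and 19 lower. Unknown depth limits the precision of low values.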
